A study of Mus musculus with 12 samples.

Results

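BMP4-treated XEN cells that had been sorted as negative for an Afp::GFP reporter were compared with untreated, unsorted XEN cells. The comparison holds 3 arrays a side, 6 of the 12 arrays measured, and was chosen by the array labels NEG1 to NEG3 and mA5_C1 to mA5_C3. XEN cells are stem cells of the extraembryonic endoderm, the tissue of the early mouse embryo that forms the yolk sac. All 4 groups of the study are one transgenic line, in which the alpha-fetoprotein gene Afp drives green fluorescent protein (GFP), grown in N2B27 medium. The other groups were 3 arrays of unsorted cells given BMP4 and 3 arrays of cells given BMP4 and sorted as GFP positive. The dose and duration of BMP4 and the sorting gate are not stated in the labels. BMP4 and sorting both separate the GFP negative from the untreated cells, and the parts they play cannot be told apart. Whether the 3 arrays of a group came from separate cultures is not labelled, and p-values therefore measure only the spread between arrays, which may be technical.

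As background, bone morphogenetic protein 4 (BMP4) binds paired serine/threonine kinase receptors, which phosphorylate SMAD proteins that act with SMAD4 on genes such as the Id family. Extraembryonic endoderm gives rise to parietal endoderm, which lays down a thick basement membrane, and to visceral endoderm, a polarised epithelium with a brush border that takes up maternal proteins by endocytosis and secretes serum proteins and lipoproteins. XEN cells in culture resemble parietal endoderm, and alpha-fetoprotein is a serum protein secreted by visceral endoderm.

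Levels below are log2 signal after background correction and quantile normalization, differences are log2 ± SE, groups are mean ± SD with n = 3 arrays, and calls were made in limma where the p adjusted over all genes by Benjamini-Hochberg was under 0.05. The 6 sorted arrays had a median raw signal of 22.6 to 32.4, against 53.4 to 60.9 on the 6 unsorted arrays, and detected 13105 to 13745 of 45281 probes, against 13872 to 14737. The part of this gap in any difference between sorted and unsorted groups was not tested. Arrays of a group correlated across genes with r of at least 0.9938, where genes are not independent replicates. On the first principal component, 73.2% of the variance, the GFP negative arrays lay at 38.0 to 38.3, the GFP positive arrays at 37.5 to 38.5, unsorted BMP4 at -17.4 to -11.6 and untreated at -61.2 to -60.7. The fractions separated on the third, 2.39% of the variance, at 9.15 to 11.7 for GFP negative and -12.6 to -8.96 for GFP positive. Where a group did not detect a gene, the fold is given as at least the distance to the dimmest signal among detected probes of its arrays. The same bound is given where 1 or 2 of its arrays detected it and its mean lay under that signal.

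GFP negative and untreated cells differed in most genes that passed the detection filter. Of 10597 genes tested, 7911 were called, 74.7%, with 4076 higher in GFP negative cells (38.5%) and 3835 lower (36.2%). A difference of at least 2-fold was called for 1158 higher (10.9%) and 1071 lower genes (10.1%), and the median over all genes was 0.02. With no detection filter 9062 of 29527 genes were called, 30.7%. With scale in place of quantile normalization the median of all genes was -0.10, with 3214 called higher and 4208 lower, and the majority thus changed sides. Against unsorted BMP4 cells 6982 genes differed (65.9%), 3524 higher and 3458 lower, and 7.11% of all genes were at least 2-fold higher and 4.33% at least 2-fold lower. Against GFP positive cells, which had also been given BMP4 and sorted, 571 differed (5.39%), 246 higher and 325 lower. With scale normalization these were 148 higher and 139 lower, so the majority changed sides here too. Of the 571, 13 were at least 2-fold higher (0.123%) and 27 at least 2-fold lower (0.255%). That last comparison rested more on single arrays: 289 genes differed without GFP positive replicate 1, 356 without GFP positive replicate 2, 306 without GFP negative replicate 2 and 353 without GFP negative replicate 3.

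**Figure D1:**
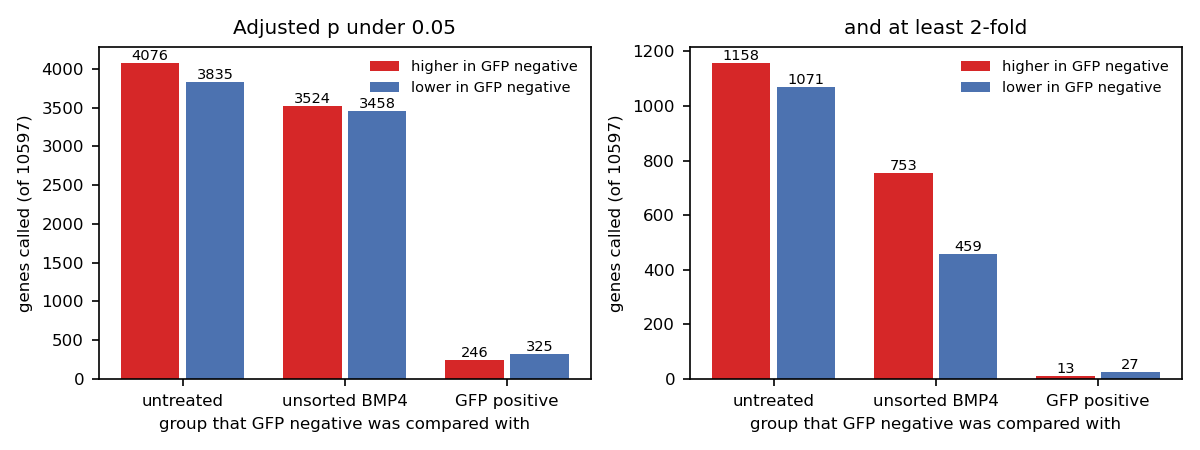
Number of genes called (y axis, of 10597) as higher or lower in GFP negative cells than in the group on the x axis, at an adjusted p under 0.05 in limma (left) and also at least 2-fold different (right). The bars against untreated cells reach 4076 and 3835, and those against GFP positive cells 246 and 325.

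The gene behind the reporter checks the sort. Afp read 5.95, 5.43 and 5.12 on the untreated arrays, 5.98, 6.15 and 5.94 on the unsorted BMP4 arrays, 9.77, 9.50 and 9.46 on the GFP positive arrays and 7.20, 7.38 and 7.46 on the GFP negative arrays. The 3 GFP negative arrays lay above all untreated and unsorted arrays and below all GFP positive ones. Afp was 1.85 ± 0.17 higher in GFP negative than in untreated cells (adjusted p = 2.51e-07 in limma), 1.33 ± 0.17 higher than in unsorted BMP4 cells, and differed by -2.23 ± 0.17 from GFP positive cells. It was detected on 1 of 3 untreated and on 3 of 3 GFP negative arrays, so the GFP negative label does not mean that Afp was undetected. Since the sort selected on an Afp reporter, its difference between fractions describes the sort.

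The promoter stretches of 3 secreted-protein genes are shown because these genes parted the fractions: Afp and vitronectin (Vtn) were lower, and apolipoprotein M (Apom) higher, in GFP negative than in GFP positive cells. Each is the 150 bases before the transcription start in RefSeq on build GRCm38.p6, read 5′ to 3′ on the gene's strand. Capitals mark TATAAA on either strand, the letters of the TATA box, a core promoter element that positions the transcription machinery. Afp lies at chr5:90490564-90490713 on the plus strand, Vtn at chr11:78498970-78499119 on the plus strand and Apom at chr17:35131802-35131951 on the minus strand.
Afp: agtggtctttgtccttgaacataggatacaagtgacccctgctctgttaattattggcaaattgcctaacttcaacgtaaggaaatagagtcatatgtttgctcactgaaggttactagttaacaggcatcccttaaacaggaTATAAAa
Vtn: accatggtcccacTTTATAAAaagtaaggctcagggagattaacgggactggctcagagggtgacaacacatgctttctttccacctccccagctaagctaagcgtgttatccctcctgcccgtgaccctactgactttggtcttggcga
Apom: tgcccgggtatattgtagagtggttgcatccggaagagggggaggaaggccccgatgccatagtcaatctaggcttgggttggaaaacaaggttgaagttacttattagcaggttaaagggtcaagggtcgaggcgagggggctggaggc
The capitals begin 7 bases before the start in Afp. In Vtn the complement TTTATA begins 137 bases before it and overlaps TATAAA on the gene's own strand, and Apom holds no match. Hemopexin (Hpx), also lower in GFP negative cells, holds none either. Of 32851 promoters in the table, 7.57% hold the letters in this window. Among tested genes of the visceral endoderm, lipid transport and serum lists, 6 of 42 promoters of the 32 genes found in the table do, with 3 of 12 for those lower than in GFP positive cells and 2 of 13 for those higher. The motif was chosen after the levels were seen, and a match is a description of the letters, not evidence of binding.

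Visceral endoderm markers were mostly higher in GFP negative than in untreated cells. Of 29 tested members of the list, 26 rose, 2 fell and 1 did not pass, with a median of 2.34 against 0.02 over all genes. Amnionless (Amn), the membrane anchor of the endocytic receptor cubilin, read 5.10, 5.13 and 5.42 on the untreated and 12.18, 12.30 and 12.29 on the GFP negative arrays. It was at least 110-fold higher (adjusted p = 6.64e-15 in limma), with 1 of 3 untreated arrays detecting it. Cubilin (Cubn) itself read 5.71, 5.70 and 5.72 and then 8.65, 8.67 and 8.58, a rise of 2.92 ± 0.10. The megalin gene Lrp2, whose product takes up cargo together with cubilin, read 5.97, 6.13 and 6.30 and then 10.22, 10.44 and 10.47, a rise of 4.25 ± 0.12. The groups did not overlap for any of the 3 receptor genes, as held for 77.6% of all genes. The endocytic adaptor gene Dab2 rose by 0.50 ± 0.07 from an untreated mean already at 13.06.

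Uptake genes as a whole were divided. Of 16 endocytic receptor and adaptor genes, Amn, Cubn and Lrp2 included, 8 rose and 6 fell, with a median of 0.23. Over all genes 38.5% were higher and 36.2% lower. Tfrc, the transferrin receptor, rose by 0.80 ± 0.07, and the recycling endosome gene Rab11a by 0.68 ± 0.09, while the adaptor subunit gene Ap2m1 fell by 0.82 ± 0.09 and the endosomal recycling gene Ehd1 by 0.75 ± 0.07. Genes of the lysosome, where such cargo is degraded, were mostly lower, with 16 of 19 falling, 3 rising and a median of -1.02. The peptidase gene Tpp1 read 10.19, 10.09 and 10.13 on the untreated and 6.83, 6.74 and 7.37 on the GFP negative arrays, a difference of -3.15 ± 0.13, and the groups did not overlap. The hexosaminidase subunit gene Hexa fell by 2.29 ± 0.10. The other 3 lysosomal genes rose: legumain (Lgmn) by 1.20 ± 0.08, cathepsin Z (Ctsz) by 0.48 ± 0.09, and the cholesterol exporter gene Npc1 by 0.34 ± 0.08. They were named after their values were seen.

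Lipid carriers and serum proteins, the secreted products of visceral endoderm, were mostly higher. Of 10 genes of lipoproteins and lipid transport, 6 rose and 3 fell, with a median of 1.72. Apolipoprotein M (Apom), carried on high-density lipoprotein, read 4.46, 4.67 and 4.68 on the untreated and 10.80, 10.54 and 10.69 on the GFP negative arrays, at least 36.8-fold higher. Apolipoprotein E (Apoe) rose by 3.44 ± 0.09, and Apoa2 and Apoa1, undetected in untreated cells, were at least 14.7-fold and 4.22-fold higher. Mttp, whose product loads lipid onto apolipoprotein B, rose by 2.36 ± 0.12. The phospholipid transfer gene Pltp fell by 1.63 ± 0.07 and the lipoprotein receptor gene Vldlr by 0.75 ± 0.07. Of 15 serum protein and clotting factor genes 12 rose, 0 fell (0 at an unadjusted p under 0.05) and 3 did not pass in limma, with a median of 1.20. The protease inhibitor Serpina10, the alpha-1-microglobulin precursor gene Ambp and coagulation factor X (F10) were undetected in untreated cells and at least 6.13-fold, 4.8-fold and 3.73-fold higher. Transthyretin (Ttr), a thyroid hormone carrier, was abundant in untreated cells at 12.55 ± 0.04 and rose by 0.55 ± 0.08. Vtn and the fibrinogen chain gene Fga were undetected on all 6 arrays of both groups.

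**Figure D2:**
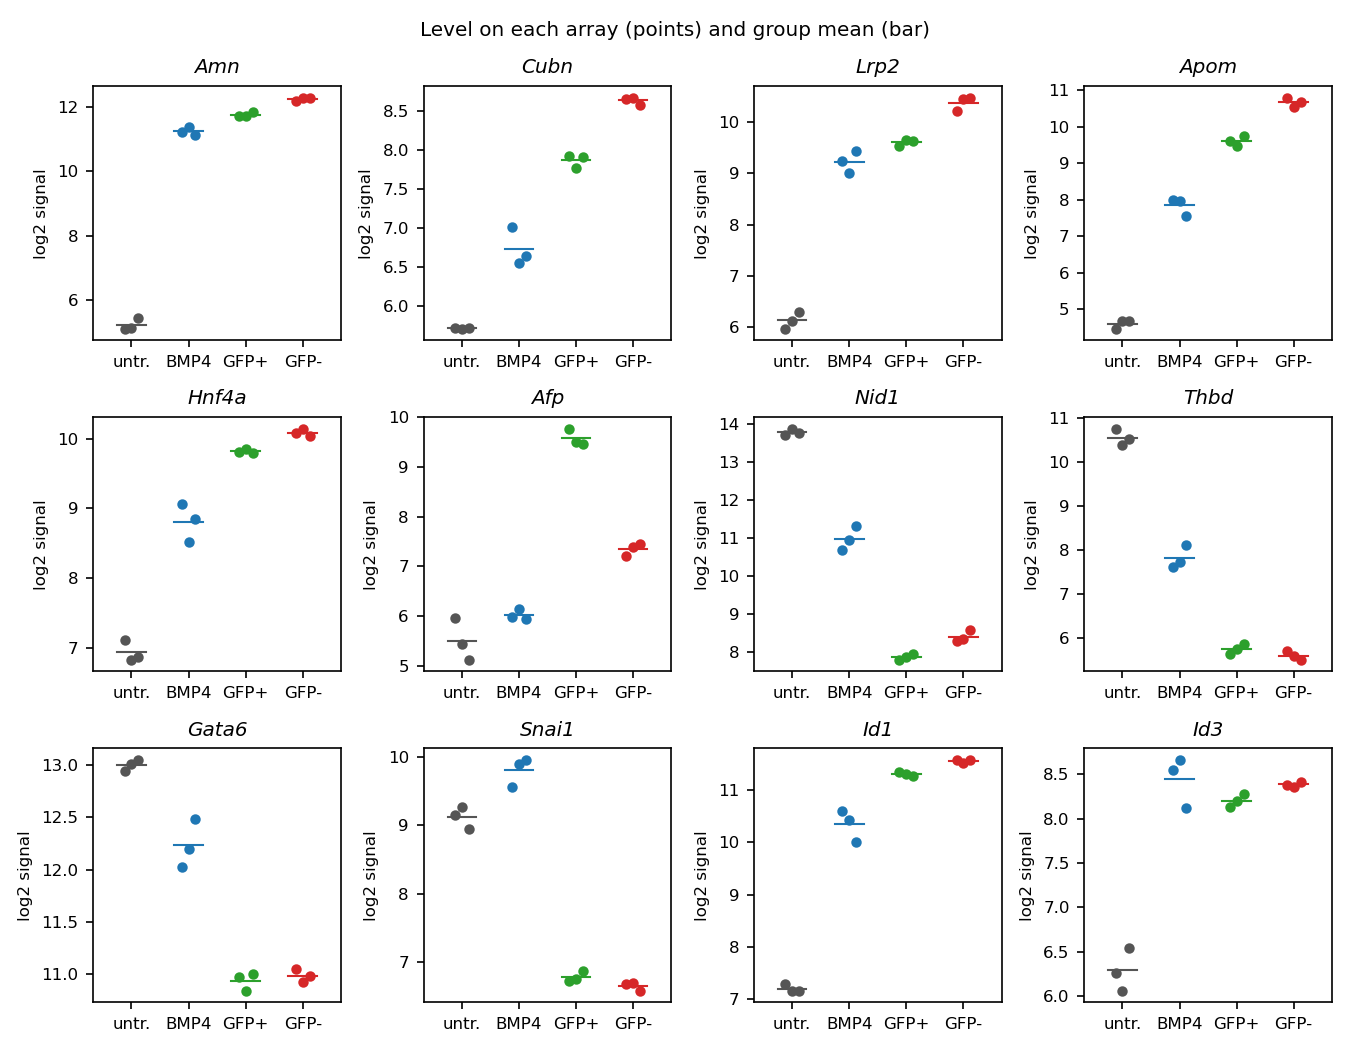
Log2 signal (y axis) of 12 genes on each array (points) with group means (bars) for untreated cells, unsorted BMP4 cells and the GFP positive and GFP negative fractions (x axis). Amn, Cubn, Lrp2 and Apom are highest in GFP negative cells, Afp is highest in GFP positive cells, and Nid1, Thbd and Gata6 are highest in untreated cells.

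Transcription factors of the endoderm moved in both directions. Hepatocyte nuclear factor 4 alpha (Hnf4a), which drives visceral endoderm and liver genes, read 7.12, 6.83 and 6.86 on the untreated and 10.07, 10.14 and 10.04 on the GFP negative arrays, a rise of 3.15 ± 0.12. The forkhead gene Foxa3 rose by 2.56 ± 0.08, and Foxa1 and Maf, undetected in untreated cells, were at least 2.22-fold and 2.47-fold higher. Foxa2, of the same family, fell by 0.94 ± 0.11. Primitive endoderm factors were lower: Gata6, which specifies the lineage, read 12.94, 13.01 and 13.05 and then 11.04, 10.92 and 10.98, a difference of -2.02 ± 0.10 with no overlap. Gata4 differed by -1.37 ± 0.13 and the SOX factors Sox7 and Sox17 by -1.41 ± 0.08 and -0.79 ± 0.08. The receptor gene Pdgfra, another marker of the lineage, differed by -0.11 ± 0.08 (95% interval -0.28 to 0.05) and did not pass, and Sall4 rose by 1.60 ± 0.07. Over the 12 tested primitive endoderm genes, 3 rose, 6 fell and 3 did not pass, with a median of -0.46. That list shares Lama1, Lamb1 and Col4a1 with the parietal endoderm list below. The defining markers of XEN cells, Gata6, Sox17, Sox7, Pdgfra and Dab2, were detected on every array of both groups. Kept probes of Sox7 disagreed, with differences from -1.41 to 0.12.

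Parietal endoderm markers were mostly lower: 15 of 19 fell, 2 rose, 2 did not pass, and the median was -0.98. Nidogen 1 (Nid1), which links laminin to collagen IV in basement membranes, read 13.72, 13.88 and 13.77 on the untreated and 8.29, 8.35 and 8.58 on the GFP negative arrays. The difference was -5.39 ± 0.13 (adjusted p = 6.62e-13 in limma), and a second kept probe of Nid1 gave -2.07. Thrombomodulin (Thbd), an anticoagulant receptor of parietal endoderm, read 10.75, 10.37 and 10.52 and then 5.71, 5.60 and 5.52, where no GFP negative array detected it, and was at least 28.3-fold lower. Tissue plasminogen activator (Plat) fell by 1.87 ± 0.08 and the retinol receptor gene Stra6 by 2.18 ± 0.07. The laminin genes Lama1, Lamb1 and Lamc1 fell by 0.94 ± 0.07, 1.58 ± 0.13 and 1.57 ± 0.08, and the matrix glycoprotein gene Sparc by 0.98 ± 0.09. Collagen IV was nearly level on this scale, with Col4a1 at -0.13 ± 0.08, which did not pass (-0.23 and adjusted p = 0.0133 in limma without untreated replicate 1), and Col4a2 at -0.38 ± 0.08, and both stayed among the brightest genes at 14.57 and 14.35. The 2 listed genes that rose were the transcriptional coregulator Cited1, by 3.98 ± 0.08, and the keratin Krt19, by 1.87 ± 0.08.

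Matrix genes as a whole were divided, with 8 of 18 rising and 9 falling, beside 38.5% and 36.2% of all genes. The secreted glycoprotein gene fibulin 1 (Fbln1) was undetected in untreated cells and read 11.05, 11.09 and 11.13 on the GFP negative arrays, at least 48.9-fold higher, although its 5 kept probes ranged from 1.89 to 6.36. The heparan sulfate proteoglycan gene agrin (Agrn) rose by 2.64 ± 0.09, fibronectin (Fn1) by 1.40 ± 0.11, and the laminin chain gene Lamb3, undetected in untreated cells, was at least 3.52-fold higher. Collagen processing genes were mostly lower, 10 of 13, with a median of -0.74. The lysyl hydroxylase gene Plod1 fell by 2.02 ± 0.15, the prolyl 3-hydroxylase gene P3h1 by 1.80 ± 0.08 and its partner Crtap by 1.79 ± 0.08. Loxl1 and Loxl2, of the lysyl oxidase family that crosslinks collagen and elastin, were the 2 that rose, at least 1.53-fold and by 1.04 ± 0.08.

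**Figure D3:**
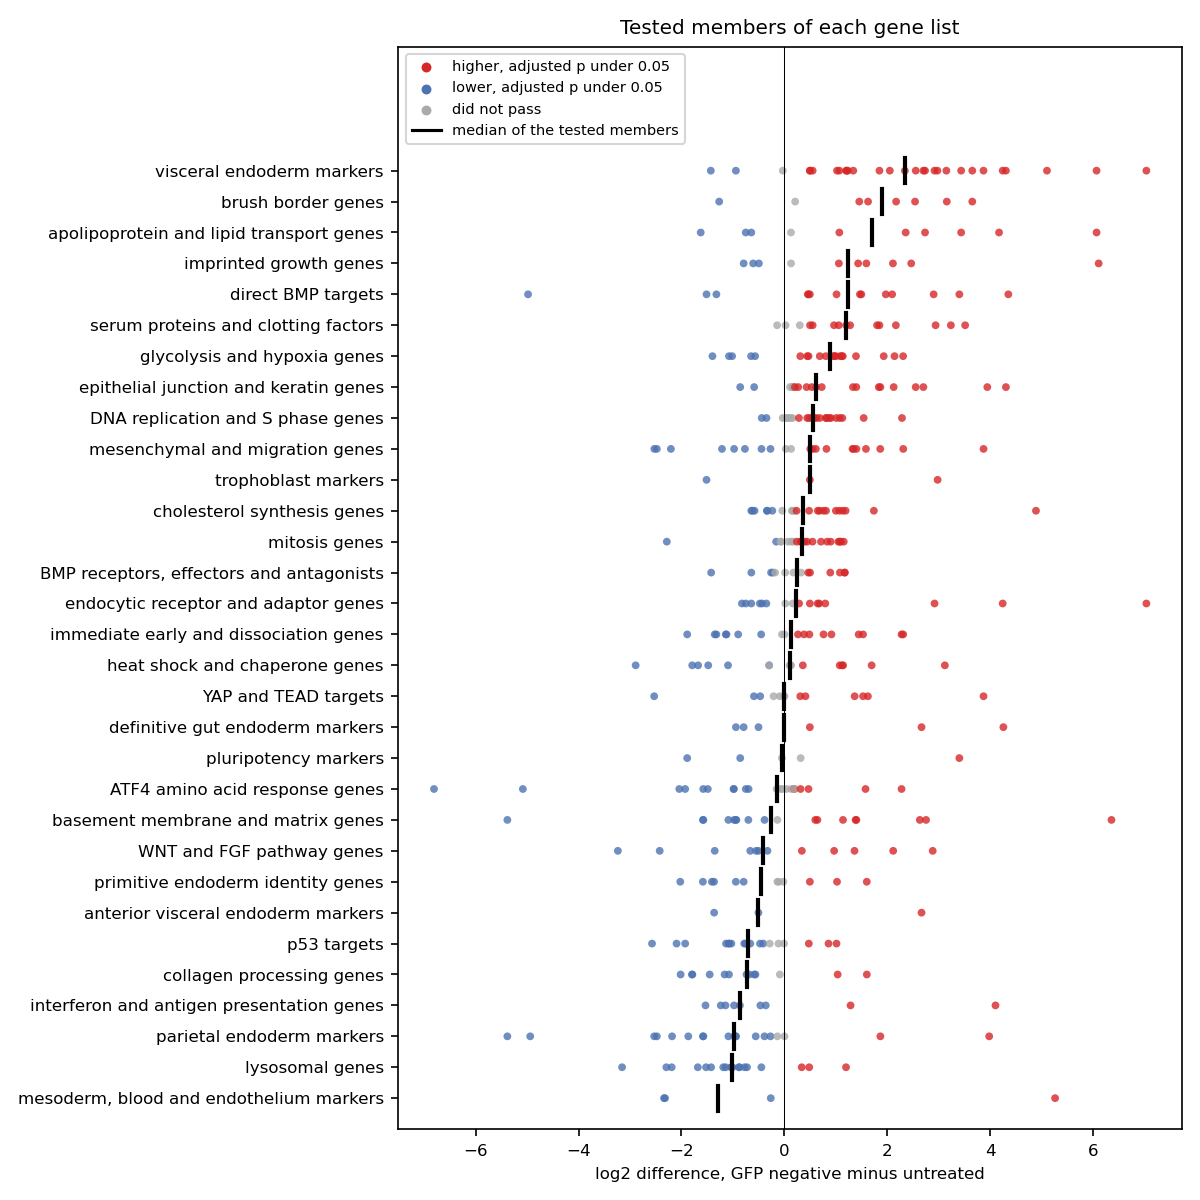
Log2 difference of GFP negative minus untreated cells (x axis) for each tested member (points) of 31 gene lists (rows, ordered by the black bar, the list's median). Visceral endoderm markers have a median of 2.34, and parietal endoderm markers and lysosomal genes have medians of -0.98 and -1.02.

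Epithelial genes were mostly higher. Of 21 junction and keratin genes 15 rose and 2 fell, with a median of 0.62. E-cadherin (Cdh1), the adhesion molecule of epithelia, read 6.27, 6.28 and 5.78 on the untreated and 8.71, 8.75 and 8.97 on the GFP negative arrays, a rise of 2.70 ± 0.14. The tight junction gene Cldn6 rose by 4.31 ± 0.08, the desmosomal genes Dsg2 and Dsp by 3.95 ± 0.09 and 2.56 ± 0.12, and occludin (Ocln) by 2.13 ± 0.11. Of 8 brush border genes 6 rose, with a median of 1.90: villin (Vil1) and plastin 1 (Pls1), which bundle actin in microvilli, were undetected in untreated cells and at least 6.09-fold and 4.83-fold higher. The apical peptidase gene Dpp4 rose by 2.54 ± 0.09, while Mme, another membrane peptidase, fell by 1.27 ± 0.09. Mesenchymal genes did not move as a block, with 11 of 21 rising, 8 falling and 2 not passing. Over all genes 38.5% were higher and 36.2% lower. The repressors Snai1 and Zeb1, which silence E-cadherin, fell by 2.48 ± 0.11 and 2.53 ± 0.13, while Zeb2 and Twist1 rose by 0.61 ± 0.08 and 0.55 ± 0.14. The receptor tyrosine kinase gene Axl rose by 3.87 ± 0.11, the hyaluronan receptor gene Cd44 by 2.31 ± 0.13 and smooth muscle actin (Acta2) by 1.87 ± 0.12, and vimentin (Vim) fell by 0.27 ± 0.07.

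Direct targets of BMP were mostly higher, 11 of 14 rising and 3 falling, with a median of 1.24. The shares over all genes were 38.5% higher and 36.2% lower. Id1, an inhibitor of differentiation factors, read 7.28, 7.16 and 7.16 on the untreated and 11.59, 11.52 and 11.57 on the GFP negative arrays, a rise of 4.36 ± 0.12. Id3 rose by 2.10 ± 0.14, Id2 by 1.50 ± 0.11 and the inhibitory SMAD gene Smad6, a feedback antagonist of the pathway, by 2.90 ± 0.14. The T-box gene Tbx3 rose by 3.40 ± 0.13. The fall of Bmper, a secreted BMP binding protein, was the steepest in the list: it read 11.21, 11.10 and 11.27 and then 6.13, 6.14 and 6.36, a difference of -4.98 ± 0.13. Gata3 and Junb also fell, by 1.51 ± 0.12 and 1.32 ± 0.09. Cdx2, a caudal homeobox gene, read 7.77 to 7.86 on the 3 unsorted BMP4 arrays but was undetected in both sorted fractions and in untreated cells. It was at least 4.25-fold lower in GFP negative than in unsorted BMP4 cells, and no fold against untreated cells is given. Among 14 receptors, effectors and antagonists 6 rose, 4 fell and 4 did not pass, with a median of 0.25 that was -0.00056 under scale normalization. The counts of that list lay near the shares over all genes. The receptor genes Acvr2b and Bmpr2 rose by 1.18 ± 0.07 and 0.89 ± 0.10 and the effectors Smad1 and Smad5 by 1.17 ± 0.12 and 1.08 ± 0.07, while Bmp8a, a ligand detected on 1 GFP negative array, was at least 2.13-fold lower.

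Several of the steepest rises lay outside these groups. Insulin-like growth factor 2 (Igf2), an imprinted fetal growth factor, read 8.61, 8.47 and 8.45 on the untreated and 14.61, 14.66 and 14.60 on the GFP negative arrays, a rise of 6.11 ± 0.07 (adjusted p = 1.7e-15 in limma). Fmo1, a flavin-containing monooxygenase, was at least 79.5-fold higher, with 1 of 3 untreated arrays detecting it. The VEGF receptor gene Flt1 rose by 5.27 ± 0.10, Plac8 by 5.29 ± 0.09, cardiac troponin C (Tnnc1) by 5.19 ± 0.10 and the cytoskeletal linker gene Epb41l3 by 5.16 ± 0.09. The threonine dehydrogenase gene Tdh, Misp3 and the IGF binding protein gene Igfbp2 were undetected in untreated cells. Their rises were at least 16.6-fold for Tdh, 23.7-fold for Misp3 and 13.6-fold for Igfbp2. The zinc transporter gene Slc39a4 was at least 26-fold higher, with 2 untreated arrays detecting it.

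The steepest fall was that of Nupr1, a stress-induced nuclear protein gene, which read 12.03, 12.04 and 12.23 on the untreated arrays and 5.36, 5.07 and 5.43 on the GFP negative arrays. No GFP negative array detected it, and it was at least 82.9-fold lower. The water channel gene Aqp8 fell by 5.89 ± 0.18, the tetraspanin gene Tspan8 by 5.37 ± 0.15 and the adhesion molecule gene Vcam1 fell by 4.23 ± 0.09. Depp1, the chromatin reader gene Mllt3, Bcat1, which encodes a transaminase of branched-chain amino acids, Gnai1, of an inhibitory G protein, Parm1, the semaphorin gene Sema6d and Calr3 were undetected in GFP negative cells. Their falls were at least 24.6-fold for Depp1, 16.3-fold for Mllt3, 14.7-fold for Bcat1, 12.7-fold for Gnai1, 13.3-fold for Parm1, 10-fold for Sema6d and 12-fold for Calr3. The glutathione transferase gene Gsta1, detected on 1 GFP negative array, was at least 18.8-fold lower. Kept probes of Bcat1 ranged from -5.08 to -0.76 and those of Mllt3 from -5.18 to -1.97.

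Stress genes gave no common direction, where 38.5% of all genes were higher than in untreated cells and 36.2% lower. The chaperone counts lay near those shares. Immediate early genes, which enzymatic dissociation and sorting are known to induce, were divided, with 9 of 18 rising and 7 falling. The phosphatase gene Dusp1, the stress factor gene Atf3 and Jun rose by 2.31 ± 0.11, 2.28 ± 0.08 and 0.92 ± 0.12, while Fos, Junb and Klf4 fell by 1.14 ± 0.08, 1.32 ± 0.09 and 1.89 ± 0.10. Egr1, of the same early class, rose by 0.76 ± 0.19 against untreated cells. In the ATF4 amino acid response, which Nupr1 and Bcat1 belong to, 5 of 21 rose and 10 fell. Chac1 and Sesn2 fell by 2.04 ± 0.10 and 1.93 ± 0.16. Among chaperones 6 of 16 rose and 6 fell: the small heat shock gene Hspb1 rose by 3.12 ± 0.11 and Hsph1 by 1.70 ± 0.12, while calreticulin (Calr), of the endoplasmic reticulum, read 12.81, 12.97 and 12.95 and then 9.94, 10.02 and 10.11, a difference of -2.89 ± 0.10. The disulfide isomerase gene Pdia3 and the ER chaperone gene Hspa5 fell by 1.48 ± 0.09 and 1.09 ± 0.12. Targets of p53 were mostly lower, 12 of 18, with Plk2 falling by 2.57 ± 0.12 and the apoptosis effector Bax by 2.10 ± 0.12, and Cdkn1a at -0.01 ± 0.07, which did not pass. With the mean of its kept probes Cdkn1a was called lower, at -0.44 (adjusted p = 5.78e-05 in limma). Of 9 interferon and antigen presentation genes 7 fell, among them the class I genes H2-D1 and B2m by 1.53 ± 0.09 and 1.24 ± 0.09. Ifitm1 and Ifitm2, the 2 that rose, were at least 9.41-fold higher and 1.29 ± 0.10 higher.

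DNA replication, mitosis and glycolysis genes were mostly higher, where 38.5% of all genes were higher than in untreated cells and 36.2% lower. Of 24 DNA replication genes 16 rose and 2 fell, with a median of 0.56: Gins1 rose by 2.29 ± 0.11, Uhrf1 by 1.54 ± 0.08 and the licensing factor gene Cdt1 by 1.13 ± 0.08. Of 21 mitosis genes 14 rose and 2 fell, with a median of 0.33, and the kinase gene Plk1 rose by 1.16 ± 0.07. Kif23, with the largest difference of the list, fell (adjusted p = 3.71e-09 in limma). Its difference ran from -2.41 to -0.22 over the processing alternatives. Glycolysis and hypoxia genes rose in 15 of 20 cases and fell in 5, with a median of 0.88. The glucose transporter genes Slc2a1 and Slc2a3 rose by 2.14 ± 0.09 and 1.93 ± 0.10 and the angiogenic factor gene Vegfa by 2.31 ± 0.11, while hexokinase 1 (Hk1) fell by 1.40 ± 0.11 and Hk2 rose by 1.12 ± 0.07. Of 22 cholesterol synthesis genes 12 rose and 6 fell, with Hsd17b7 at 1.74 ± 0.11. In the WNT and FGF list, 5 of 12 rose and 7 fell: the receptor gene Fgfr2 rose by 2.89 ± 0.16, Axin2, a target of WNT signalling, was at least 3.48-fold lower, and the ligand gene Fgf10 at least 4.79-fold lower. Of 10 imprinted genes, Igf2 included, 6 rose and 3 fell, Peg3 rose by 2.47 ± 0.15 and the noncoding RNA H19 fell by 0.49 ± 0.11. H19 read 11.44 in untreated, 14.05 in unsorted BMP4, 11.47 in GFP positive and 10.95 in GFP negative cells.

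The GFP negative cells were then set against unsorted cells given the same factor, a comparison in which sorting and GFP status differ by label. The unsorted BMP4 cells did not lie between the fractions in every measure. Their Afp was lower, and their H19 and Cdx2 higher, than in either fraction. On the first principal component they lay at -17.4 to -11.6, against 37.5 to 38.5 for both fractions. Whether culture, duration or array batch also differed is not labelled and was not tested. Against a background of 33.3% higher and 32.6% lower over all genes, visceral endoderm markers were higher in 18 of 29 cases and lower in 6, with a median of 0.53 beside -0.01 over all genes. Brush border genes were higher in 8 of 8 cases and lower in 0. Parietal endoderm markers were lower in 12 of 19 and higher in 4. All 9 interferon and antigen presentation genes tested were lower. The call of Ifitm2 was narrow (adjusted p = 0.0488 in limma) and was lost under several alternatives, with a highest adjusted p of 0.227. Ifitm1 lost its call with the mean of its kept probes (adjusted p = 0.186 in limma). Immediate early and dissociation genes were higher in 11 of 18 cases and lower in 6, with a median of 0.54. Nid1 differed by -2.58 ± 0.13, Thbd was at least 4.28-fold lower, and Apom differed by 2.82 ± 0.12, Cubn by 1.90 ± 0.10 and Hnf4a by 1.28 ± 0.12. With scale normalization 2571 genes were higher and 3950 lower than in unsorted BMP4 cells, 39.4% of calls higher against 50.5%.

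The rule also named the 6 genes with the largest difference from untreated cells among 715 that were called there in one direction and in unsorted BMP4 cells in the other, where 30.2% of all genes were called higher and 28.7% lower than in untreated cells. These groups share the untreated arrays, so the count is a description. The rule set no least size for the difference between unsorted BMP4 and untreated cells. The ectonucleotidase family gene Enpp5 read 5.54, 5.33 and 5.31 on untreated, 5.12, 5.24 and 4.67 on unsorted BMP4 and 9.22, 9.16 and 9.24 on GFP negative arrays. It was at least 12.4-fold higher in GFP negative than in unsorted BMP4 cells, and its GFP positive mean was 9.26. Its untreated and unsorted BMP4 readings lay around or below the dimmest detected signals, which averaged 5.48 and 5.57 on those arrays. The membrane trafficking gene Scamp5 was 3.40 ± 0.12 higher than in unsorted BMP4 cells, annexin A6 (Anxa6) 2.95 ± 0.09 and the transcription elongation cyclin gene Ccnt2 3.13 ± 0.12. Snai1 read 9.15, 9.28 and 8.95, then 9.56, 9.90 and 9.96 with BMP4 unsorted, and 6.67, 6.69 and 6.58 in GFP negative cells, a difference of -3.16 ± 0.11 from unsorted BMP4. The transporter gene Slc45a3 differed by -2.75 ± 0.09. For each of the 6 genes the GFP negative arrays overlapped neither the unsorted BMP4 nor the untreated arrays, where 68.7% and 77.6% of all genes did not overlap. GFP negative cells differed from the GFP positive fraction, sorted alike, by -0.05 ± 0.12, -0.16 ± 0.12, -0.01 ± 0.09, -0.05 ± 0.12 and -0.14 ± 0.11 for Enpp5, Scamp5, Anxa6, Ccnt2 and Snai1, none of which passed, and by -0.62 ± 0.09 for Slc45a3.

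Against GFP positive cells, where treatment and sorting were shared, the background was 2.32% higher and 3.07% lower. The cubilin and megalin receptor genes were higher and several secreted protein genes lower in GFP negative cells. Of 29 visceral endoderm markers 11 were higher, 5 lower and 13 did not pass. Of 15 serum protein genes 2 were higher, 9 lower and 4 did not pass, with a median of -0.64 beside 0.01 over all genes. Of 16 endocytic genes 5 were higher, 0 lower (0 at an unadjusted p under 0.05) and 11 did not pass in limma. Cubn read 7.92, 7.77 and 7.91 on the GFP positive arrays and Lrp2 read 9.53, 9.65 and 9.63, and both lay below all GFP negative arrays (27.4% of all genes did not overlap between the fractions), by 0.77 ± 0.10 and 0.77 ± 0.12. Amn was 0.49 ± 0.10 higher in GFP negative cells and Mttp 0.62 ± 0.12, and without GFP positive replicate 1 Amn was 0.46 higher and did not pass (adjusted p = 0.0507 in limma). The protease inhibitor gene Spink1 was 0.59 ± 0.10 higher and the apical peptidase gene Dpp4 0.75 ± 0.09. The transferrin receptor gene Tfrc differed by -0.07 ± 0.07 and did not pass, and the lipoprotein receptor gene Vldlr was lower, at -0.76 ± 0.07. The visceral endoderm count was 7 higher without GFP positive replicate 1, GFP negative replicate 2 or GFP negative replicate 3, and the endocytic count was 3 higher without GFP positive replicate 1.

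Transferrin (Trf), the iron carrier of serum, read 7.82, 7.76 and 7.73 on the GFP positive and 5.67, 6.16 and 6.19 on the GFP negative arrays, a difference of -1.76 ± 0.13. Hemopexin (Hpx), a heme carrier, differed by -1.12 ± 0.12, the kininogen gene Kng1 by -0.80 ± 0.14, Serpina10 by -0.74 ± 0.10, the anticoagulant gene Proc by -0.64 ± 0.10 and Apoa1 by -0.61 ± 0.11. Apolipoprotein B (Apob), the structural protein of large lipoproteins, was at least 1.81-fold lower, with 1 of 3 GFP negative arrays detecting it. Foxa1 was lower, at -0.75 ± 0.10, while Hnf4a differed by 0.27 ± 0.12 (95% interval 0.01 to 0.52) and did not pass in the fit of all 4 groups. In limma 0 of 21 mesenchymal genes were higher (1 at an unadjusted p under 0.05, and 1 called without GFP positive replicate 3) and 6 were lower, among them galectin 1 (Lgals1) at -1.30 ± 0.13, Acta2 at -1.0 ± 0.12 and Axl at -0.62 ± 0.11. Among imprinted genes Phlda2, a placental growth restrictor undetected in GFP positive cells, was at least 2.15-fold higher, and the cyclin-dependent kinase inhibitor gene Cdkn1c differed by -1.31 ± 0.12. Igf2 differed by -0.17 ± 0.07 (95% interval -0.32 to -0.02), which did not pass.

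**Figure D4:**
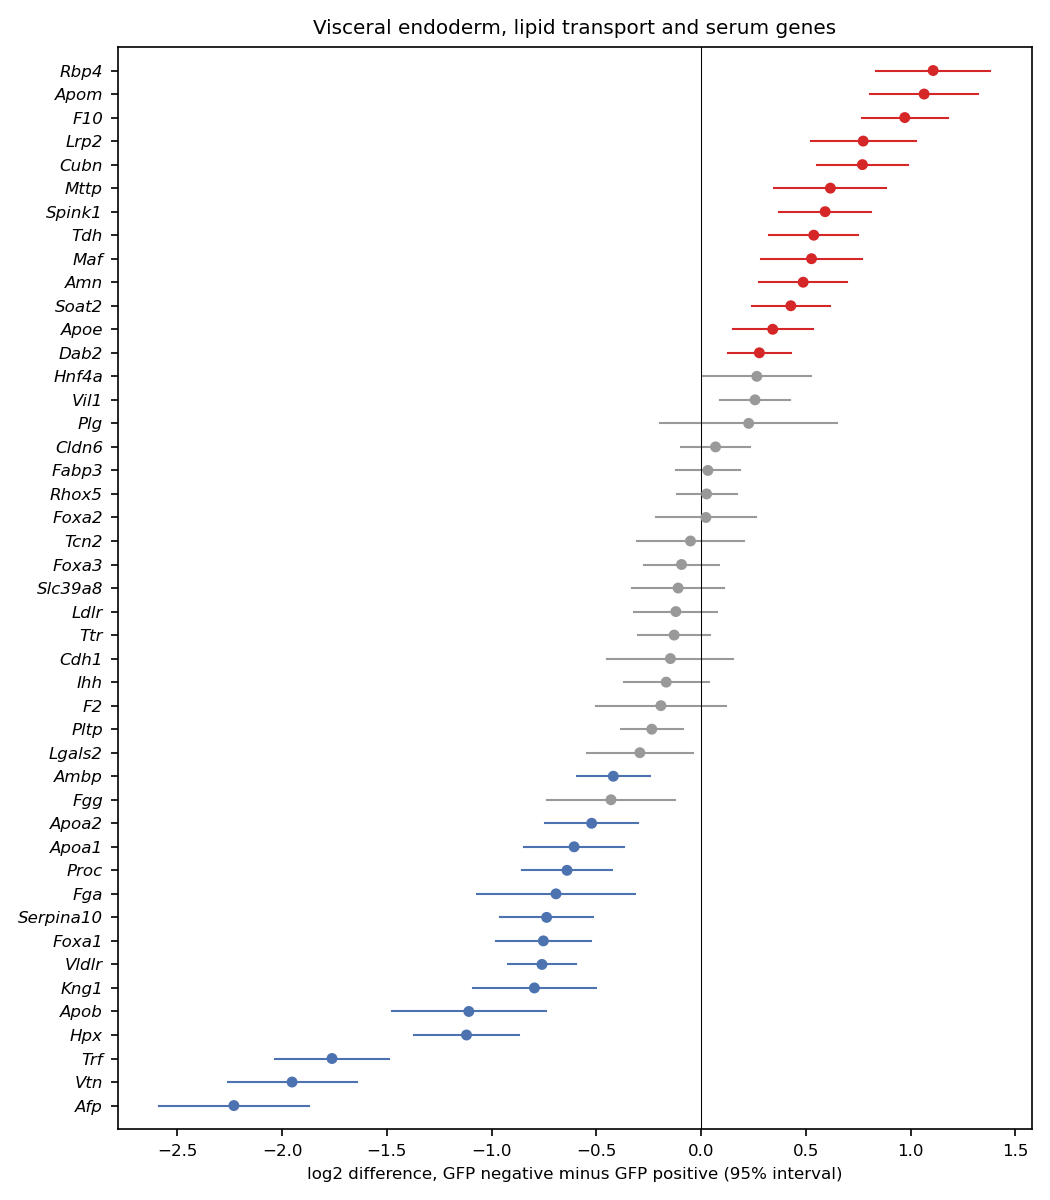
Log2 difference of GFP negative minus GFP positive cells with its 95% interval (x axis) for 45 of the tested visceral endoderm, lipid transport and serum genes (rows), colored red where higher and blue where lower at an adjusted p under 0.05 in limma and grey where neither. The 13 higher genes include Lrp2 and Cubn and the 14 lower ones Afp, Vtn and Trf.

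Of all genes, 101 were higher in GFP negative cells than in each of the other 3 groups, 0.953%, and 113 were lower, 1.07%. The rule named the 8 in each direction with the largest smallest difference, so their differences are a description. Those counts were 50 and 55 without GFP positive replicate 1, 60 and 68 without GFP positive replicate 2 and 49 and 56 without GFP negative replicate 2, and 63 were higher without GFP negative replicate 3. The adenosine receptor gene Adora2b read 4.69, 4.40 and 4.41 on untreated, 5.57, 4.90 and 4.66 on unsorted BMP4, 5.60, 5.94 and 5.86 on GFP positive and 7.12, 7.50 and 7.42 on GFP negative arrays. It was 1.54 ± 0.19 higher in GFP negative than in GFP positive cells. Slc7a8, a transporter of neutral amino acids, was detected on no array of the other groups and read 6.57, 6.87 and 6.50 in GFP negative cells. Laptm5, a lysosomal membrane protein gene, was also detected in no other group and read 6.06, 6.35 and 6.33. Both passed the detection filter only through the GFP negative arrays. Apom, F10, the sodium/calcium exchanger gene Slc24a4, the calcineurin regulator gene Rcan2 and the receptor tyrosine kinase gene Ltk completed the group, at 1.06 ± 0.12, 0.97 ± 0.10, 0.87 ± 0.15, 1.05 ± 0.14 and 0.84 ± 0.08 above GFP positive cells.

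Among the genes lowest in GFP negative cells, the calcium binding protein gene S100a6 read 7.55, 7.42 and 7.77 on untreated, 7.88, 7.36 and 7.64 on unsorted BMP4, 7.84, 7.50 and 7.49 on GFP positive and 6.38, 6.44 and 6.27 on GFP negative arrays. The other 3 groups overlapped each other, and all GFP negative arrays lay below them. Wfdc1, a secreted protein with a protease inhibitor domain, read 11.72 to 11.93 in untreated and 8.19 to 8.60 in GFP negative cells, with unsorted BMP4 at 10.34 and GFP positive at 9.63 in between. The glutathione transferase gene Mgst2 and the membrane protein gene Emp1 stood in the same order of group means, ending at 6.37 ± 0.05 and 7.46 ± 0.04 in GFP negative cells. The retinaldehyde dehydrogenase gene Aldh1a1, the signalling antagonist gene Spry3 and the actin filament associated gene Afap1 were undetected in GFP negative cells, and Mucl3 differed by -1.32 ± 0.14 from GFP positive cells. Afap1 was also detected on no GFP positive array. The calls of Mgst2 and Afap1 against GFP positive cells were lost with scale normalization, with no detection filter, without GFP positive replicate 1 or 2 and without any 1 GFP negative replicate. The highest adjusted p in limma was 0.0986 for Mgst2 and 0.184 for Afap1, and Afap1 also lost its call with a replicate block.

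**Figure D5:**
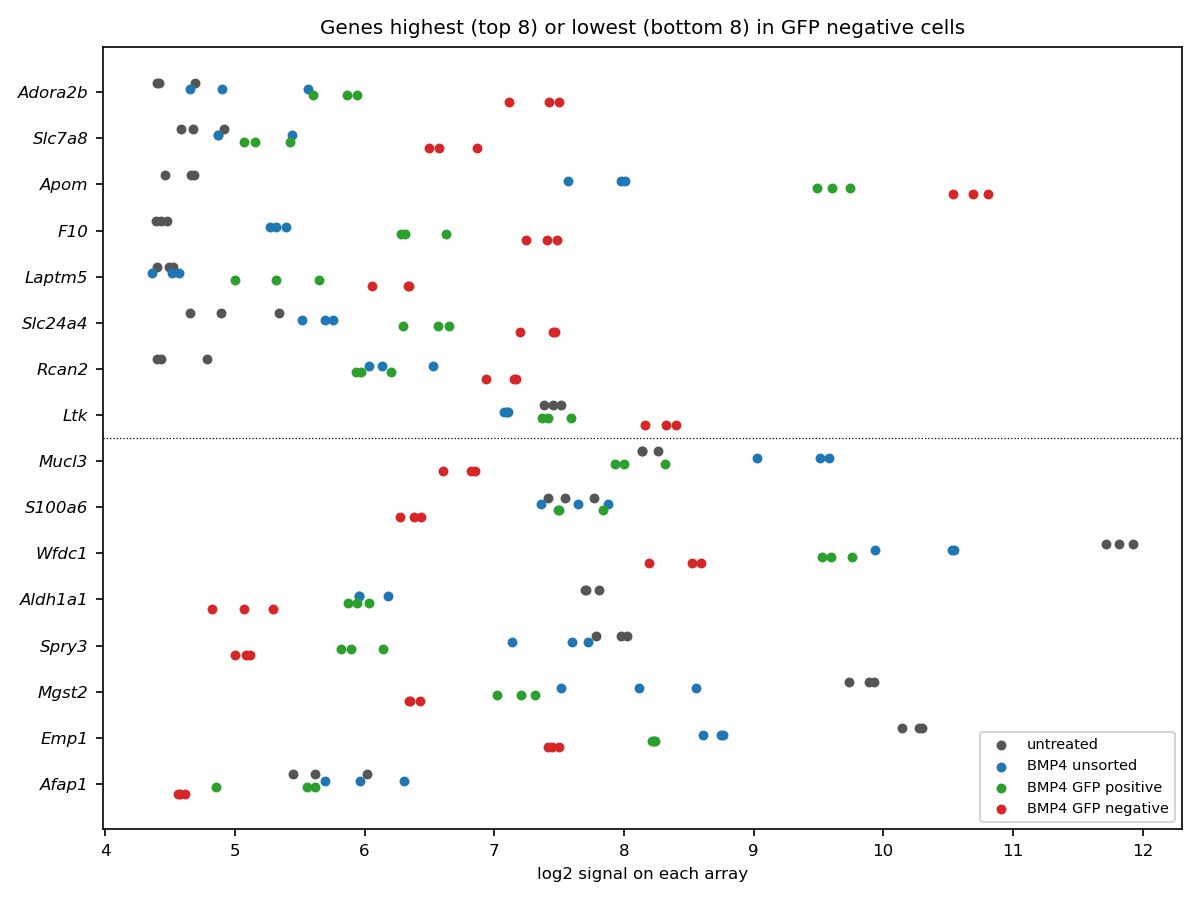
Log2 signal on each array (x axis; points, colored by group) of the 8 genes highest and the 8 lowest in GFP negative cells (rows, parted by the dotted line). On the S100a6 row the GFP negative points lie alone on the left, and on the Adora2b row alone on the right.

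A further 4 genes were called at a difference of at least 1 between GFP positive and untreated cells (10.6% of all genes higher, 9.91% lower), and also between unsorted BMP4 and untreated cells and between the fractions, but not between GFP negative and untreated cells. These values chose the genes and are a description. Vtn, an adhesive serum protein gene, read 5.21, 4.75 and 4.61 on untreated, 6.98, 6.78 and 6.75 on GFP positive and 4.81, 5.0 and 4.83 on GFP negative arrays, and no GFP negative array detected it. Pcolce, an enhancer of procollagen cleavage, read 6.08, 6.33 and 5.86, then 7.41, 7.23 and 7.43 in GFP positive and 6.05, 6.31 and 5.63 in GFP negative cells. Its GFP negative minus untreated difference was -0.09 ± 0.15 (95% interval -0.42 to 0.24). Tex13b was detected on 3 of 3 GFP positive arrays and on no array of the other groups. It passed the detection filter only through the GFP positive arrays, and its call between unsorted BMP4 and untreated cells compares groups that did not detect it. The EGF family ligand gene neuregulin 1 (Nrg1) was at 7.46 ± 0.13 in untreated and 7.24 ± 0.06 in GFP negative cells, against 6.38 ± 0.08 in GFP positive cells. Nrg1 was called lower than in untreated cells with scale normalization (-0.41) and with only the compared groups in the fit, at a lowest adjusted p in limma of 0.0356, and Tex13b was called higher without untreated replicate 2 (adjusted p = 0.0256).

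Markers of other cell types were looked for as a check of the cells. No fibroblast marker of 12 on the array and no neural marker was detected on enough arrays to be tested. Of the pluripotency list 5 of 14 genes were tested, with a summed signal of 2739 to 3365 in untreated and 2024 to 2144 in GFP negative cells, and Pou5f1, Nanog and Sox2 were not among them. Of the trophoblast list 3 genes were tested, summing to 241.9 to 272.9 and 314.3 to 379.9, where Plac1 was at least 5.4-fold higher and Gata3 fell. Of the mesoderm, blood and endothelium list 4 genes were tested, summing to 2237 to 2405 and 5088 to 5289. Flt1 carried that rise, while the endothelial genes Tek and Cdh5 fell by 2.32 ± 0.07 and 2.34 ± 0.10. The 6 tested gut endoderm genes summed to 5703 to 6758 and 5777 to 5903. Of these, 3 were called higher and 3 lower, with a median of -0.0025. Cpm and Hhex rose by 4.26 ± 0.12 and 2.67 ± 0.07, while Foxa2 and Sox17 were among those that fell. The part of other cells in the differences was not tested.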

How the data were processed

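Per the labels' protocols, RNA of the 12 samples was purified on RNeasy columns, and biotinylated cRNA made with a MessageAmp kit was put on Illumina mouse arrays. Per the file headers, BeadStudio 3.4.0 wrote the deposited table without normalization, with an intensity (the mean signal of the beads) and a fraction for detection for each of 45281 probes. That deposited fraction was read as 1 minus the detection p. Another deposited table gives 20178 probes as log2 values, and the submitters' processing notes name lumi, with no version or settings given in the sources used here. It was used only to count probes as an alternative.

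Background correction used the detection p (nec, offset 16), and signals were then quantile normalized over the 12 arrays and put on the log2 scale in limma 3.58.1 and R 4.3.3. A probe had to reach a detection p under 0.01 on 3 or more arrays (15448 did), and the brightest stood for its gene, giving 10597 genes, of which 3424 had more than 1 kept probe. For 338 genes kept probes were called in both directions against untreated cells. Gene names in the file were replaced by RefSeq symbols where identical (13430) or a synonym of only 1 symbol (8112), and 9948 stayed as the file has them. No array was identical to another.

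A linear model of 4 group means was fitted with moderated errors (8 residual and 5.08 prior degrees of freedom, median residual SD 0.116), and adjusted p-values run over all genes. Replicate numbers were not used as pairs: deviations of same-numbered GFP negative and untreated arrays correlated at -0.00369, 0.0125 and 0.0238, and those of GFP negative and GFP positive arrays at 0.152, 0.127 and -0.0132. The labels do not say whether equal numbers share a culture, and these correlations cannot settle it.

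The comparison and the 33 gene lists were chosen with earlier results of these data known. Some lists share genes, so their counts are not independent. Genes are named by a rule: the 15 largest rises and falls among called genes with no overlap between arrays, up to 4 members of each list, 30 set genes, the 8 genes each way apart from all other groups, and those called in GFP positive but not GFP negative cells. The rule also took the 6 largest differences from untreated cells among genes called in opposite directions in GFP negative and unsorted BMP4 cells. Other list members were named after their values were seen. The set gene Smad7 was not tested, and 5 genes that the rule or the lists would name are not reported here.

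The alternatives tried were scale normalization, an offset of 50 or no background correction, another detection filter or none, averaging a gene's kept probes, array weights, fewer groups in the fit, a replicate block, other thresholds, each probe on its own, the processed table, and leaving out each array. Model fit and calling were tested on simulated normalized values, where log2 changes of 0.5, 1 and 2 were recovered in 68.7%, 97.0% and 100% of planted genes against untreated cells among 10597 genes. The simulation left 10397 genes unchanged, whereas 74.7% were called in the data, so its recovery may differ from theirs. It did not test background correction or normalization.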

Additional observations from a re-analysis of the deposited data

Results flagged for a closer look

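The following named genes differed between GFP negative and a second treated group, which is also the difference between the 2 groups' effects against the shared untreated arrays. Adora2b, Slc7a8, Apom, Rcan2, Mucl3, S100a6, Wfdc1, Vtn and Pcolce were named in part because they were called against GFP positive cells, so their values are a description. Against GFP positive cells, 15 named genes differed by at least 1 on the log2 scale, 7 higher and 8 lower. The 7 higher ones were Adora2b (1.54), Slc7a8 (1.43), Phlda2 (1.23), Bmper (1.14), Egr1 (1.08), Apom (1.06) and Rcan2 (1.05). The 8 lower ones were Afp (-2.23), Vtn (-1.95), Pcolce (-1.36), Mucl3 (-1.32), Cdkn1c (-1.31), S100a6 (-1.24), Wfdc1 (-1.19) and Lamb3 (-1.06). Afp follows the reporter used for the sort. Slc7a8 passed the detection filter only through the GFP negative arrays. Slc7a8, Phlda2 and Bmper were detected on no GFP positive array and Vtn on no GFP negative array, so those fitted values are not measured folds.

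Against unsorted BMP4 cells, the 6 genes named for moving in opposite directions from untreated cells differed by that choice, and their values are a description. Enpp5 (4.19), Scamp5 (3.40), Ccnt2 (3.13) and Anxa6 (2.95) were higher in GFP negative cells, and Snai1 (-3.16) and Slc45a3 (-2.75) lower. Enpp5 lay at background in unsorted BMP4 cells, so its fitted value is not a measured fold. The median raw signal of the sorted arrays was also lower, at 22.6 to 32.4 against 53.4 to 60.9, and its part in these differences was not tested. Groups of 3 arrays are too small for a test of single outlying arrays.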

How the results depend on the processing

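Of the 2973 values of the 199 named genes recomputed under alternatives, 2966 against untreated, 2915 against unsorted BMP4 and 2838 against GFP positive cells kept their side of the threshold and, where called, their direction, while 8, 17 and 90 of those, not called, changed sign. With the mean of the kept probes Kif23 turned to 0.089 against unsorted BMP4. At an absolute log2 difference of at least 1 the counts were 2229, 1212 and 40, and at an adjusted p under 0.01 the last was 240. The authors' processed table gave 12239 and 10680 of 20178 probes for the first 2 comparisons. Scale normalization gave 287 genes against GFP positive, 61 higher and 46 lower than all other groups, and moved the median of all genes to -0.10, -0.11 and 0.05. Array weights gave 918, 176 and 185, and no detection filter 75 lower than all groups. Leaving out each array gave 7512 to 7601 genes against untreated, 6477 to 6834 against unsorted BMP4, 289 to 445 against GFP positive, 49 to 110 higher and 55 to 134 lower than all other groups. Whether the replicate numbers pair the samples is not labelled. The replicate block gave 7861, 6946 and 503 genes, and 89 and 96 apart from all groups. Of 2232 list counts 2086 stayed within 1.5 times, and small counts moved most. The cause of these changes was not tested. Signal over background limits the dimmest genes, which carry bounds only.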
